A study of Mus musculus with 72 samples.

Results

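Translocations that carried 1 to 9 inserted bases at the junction were described here in neural progenitor cells, using the translocation sequencing method LAM-HTGTS, short for linear amplification and high-throughput sequencing of translocations. In this assay Cas9 cuts a bait site on 1 chromosome, and reads primed inside the bait run through the junction into the other broken end, the prey. The members were chosen by their own readout: a junction was selected on a prey on chromosomes 1 to 19 other than the bait chromosome, and on 1 to 9 read bases that lay between the end of the bait alignment and the start of the prey alignment. This rule found 18784 insertion junctions among 169098 translocations, 11.1%, out of 593366 junctions in 60 libraries. The remaining translocations were 104726 joins in which bait and prey alignments shared bases (61.9%, here called homology), 33918 direct joins with neither shared nor inserted bases (20.1%) and 11670 joins with insertions of 10 or more bases (6.90%).

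Xrcc4/p53-deficient cells were neural progenitors derived from the embryonic stem cell line Nxp010, labelled NestinCre+Xrcc4-/-p53-/-. Wild-type cells were primary neural stem and progenitor cells (NSPC) from embryonic C57BL/6J mouse brains, with neither deletion. All cells had been nucleofected with a plasmid that encodes Cas9 and 1 of 4 bait guides and were then cultured under the named treatment. The treatments were the solvent DMSO, the polymerase inhibitor aphidicolin (APH; 0.5 µM for 72 h, then 0.25 µM for 24 h), the polymerase theta (Pol θ) inhibitor ART558 (5 µM for 72 h, then 2.5 µM for 24 h), or both drugs. Xrcc4/p53-deficient cells carried a chr6, chr8, chr12 or chr14 bait, and wild-type cells a chr6 or chr14 bait under APH with or without ART558; no DMSO library of wild-type cells was analysed here. The labels put most libraries in a theta collection; the chr14 libraries and 7 of the chr6 DMSO libraries of Xrcc4/p53-deficient cells lack that label. The deficient genotype rests on 1 cell line, the 2 genotypes differ in cell source as well as in the deletions, and each genotype was sequenced in runs of its own, so genotype, cell source and run cannot be told apart. With the chr8 bait, libraries with and without ART558 shared no sequencing run. With the chr12 bait, libraries with both drugs shared no run with the other treatments. Drug and run cannot be told apart in these comparisons. The labels do not say that replicates came from separate cultures, and the p-values below measure the spread between libraries. The study's reporting summary calls the repeats technical in Xrcc4/p53-deficient cells and biological in wild-type cells. Its figure legends name biological replicates for both.

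XRCC4 is a core factor of non-homologous end joining, which ligates broken ends with little processing, and p53 arrests or removes cells with unrepaired breaks. Without XRCC4, ends are joined by alternative routes, among them theta-mediated end joining, in which Pol θ pairs short complementary stretches of 2 resected ends and extends them. Pol θ is known for leaving short insertions that are copied from sequence near the joint, while other small insertions can arise from untemplated addition or from fill-in of staggered ends. Aphidicolin slows replication forks and raises breakage in long neural genes, where recurrent DNA-break clusters (RDCs) lie.

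The bait guides are shown because each insertion was read from the cut they set. The capitals mark the 3 guide bases between the Cas9 cut and the PAM, and all coordinates are on GRCm38 (mm10).
chr6 guide: gagggttggaaatgctcGTA
chr8 guide: gtcgaccatatgctaatCTT
chr12 guide: attccgccaaccctcgaGAT
chr14 guide: ggcttagttatagtaggGGC
The chr6 guide lies at chr6:70950106-70950125 on the minus strand, the chr8 guide at chr8:59477701-59477720 on the minus strand, the chr12 guide at chr12:12994038-12994057 on the plus strand and the chr14 guide at chr14:83268830-83268849 on the plus strand. An intact bait end gives a read of 98, 129, 132 or 164 bait bases for chr6, chr8, chr12 and chr14, and this length caps the loss that can be seen at each bait. Levels of bait-end loss were therefore compared within a bait only.

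To show what an insertion looks like, 1 junction with the longest run found again within 50 bases of an end and 1 with the longest run not found there are given for each bait. Each line holds 20 bait bases, the inserted run in capitals and 20 prey bases, in the direction of the read.
chr6 bait, run found: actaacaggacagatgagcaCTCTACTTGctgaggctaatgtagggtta
chr8 bait, run found: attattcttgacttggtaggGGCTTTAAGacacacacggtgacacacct
chr12 bait, run found: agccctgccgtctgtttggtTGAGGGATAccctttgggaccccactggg
chr14 bait, run found: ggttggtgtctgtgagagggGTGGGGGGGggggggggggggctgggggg
chr6 bait, run not found: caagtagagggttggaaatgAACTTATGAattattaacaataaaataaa
chr8 bait, run not found: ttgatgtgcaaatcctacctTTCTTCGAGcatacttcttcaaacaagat
chr12 bait, run not found: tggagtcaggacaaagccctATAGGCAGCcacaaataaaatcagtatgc
chr14 bait, run not found: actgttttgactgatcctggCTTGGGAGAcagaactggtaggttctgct
In the chr6 junction CTCTACTTG is an inverted copy that starts 2 bases inside the bait end, which had lost 21 bases, and the prey lay at position 60849359 of chromosome 1 outside any protein-coding gene. In the chr8 junction GGCTTTAAG is an inverted copy 1 base away from the prey end, on the side of the break that was lost. In the chr12 junction TGAGGGATA is an inverted copy 20 bases into the kept prey, in an intron of Pgap1. The chr14 run ends in a prey read that is almost all G, a kind of read that is counted separately below. Of the runs not found, ATAGGCAGC of the chr12 bait lies 58 bases past its own bait end, outside the 50 bases searched: it is the sequence that begins 1 base past the Cas9 cut, and the bait end had lost 57 bases. The chr6 junction with AACTTATGA had its prey in an intron of St18, and the other runs not found had preys outside protein-coding genes.

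Several libraries stood apart in their reads. Prey reads with at least 15 G among their first 20 bases made up 5.37% of the insertion junctions (1009), 0.324% of the direct joins and 0.142% of the joins with homology. Among joins with insertions of 10 or more bases they made up 17.6% (2055). They reached 20.9% of the insertion junctions in wild-type APH libraries with the chr14 bait, 19.1% in wild-type APH plus ART558 libraries with the chr6 bait, 15.3% in those with the chr14 bait and 14.2% in the chr14 DMSO libraries. Some read sequences, with the same bait end, inserted run and first 20 prey bases, were placed at more than 1 position. They made up 9.07% of the insertion junctions (1703), against 44.2% in wild-type APH plus ART558 libraries with the chr6 bait. In replicate 4 of that group a single read sequence with a 7-base insertion stood at 79 positions. Such reads were not limited to insertions: they made up 43.6% of direct joins and 50.03% of joins with homology in that group. In wild-type APH libraries with the chr6 bait they made up 27.4% of insertions, 53.8% of direct joins and 55.01% of joins with homology. Insertion junctions were also found more often where the read-length entry of the table was empty: in 52 of 53 libraries the share was higher among those junctions, with a median of 21.4% against 9.81%. The results that these reads change most are given with and without them.

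The share of translocations with a 1 to 9 base insertion is given first by bait. In Xrcc4/p53-deficient cells under DMSO it was 15.8% ± 0.849 (SD, n = 2) for the chr6 bait, 9.44% ± 1.24 (n = 3) for chr8, 7.59% ± 0.450 (n = 2) for chr12 and 15.5% ± 5.87 (n = 4) for chr14. The chr14 libraries under DMSO had shares of 11.6%, 24.1%, 11.8% and 14.5%. The library at 24.1% held only 133 translocations, and its exact 95% binomial interval, which covers counting error only, ran from 17.1% to 32.2%. The 7 chr6 DMSO libraries outside the theta collection were close together, from 12.8% to 15.6% with a median of 13.6%.

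Aphidicolin lowered the share. In Xrcc4/p53-deficient cells the mean over the 4 baits was 9.23% under APH and 12.1% under DMSO, a difference of -2.83 points (adjusted p = 0.0245, exact permutation of the labels within baits, 9 against 11 libraries). For the chr6 bait the single APH library was at 11.9% and both DMSO libraries were above it, at 16.4% and 15.2%. For the chr14 bait the APH libraries had 9.10%, 10.1% and 9.42%, all below the 4 DMSO libraries. The chr8 and chr12 groups overlapped, with differences of -0.845 and -0.729 points. The call was lost when G-run preys were left out and each read sequence was counted once (-1.91 points, adjusted p = 0.0514, exact permutation), within sequencing runs (-2.82 points, adjusted p = 0.0733), with insertions of 2 to 9 bases alone (-2.33 points, adjusted p = 0.0529), without bait strata (-3.55 points, adjusted p = 0.216), and without the chr6 APH library or without APH replicate 1 of the chr12 bait, over a range of -3.16 to -2.12 points for all single omissions. With the replicate number as a block it was -3.03 points (adjusted p = 0.0938, exact sign-flip permutation), where the raw p of 0.00391 was the smallest the pairs allow.

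ART558 did not change the share of insertions detectably. It was 9.53% with ART558 and 10.9% with DMSO (difference -1.40 points, adjusted p = 0.675, exact permutation, 8 against 7 libraries), and 9.91% with both drugs against 9.13% with APH (difference 0.777 points, adjusted p = 0.893, exact permutation). Both values rest on single chr6 libraries. Without the ART558 library at 5.92%, replicate 2, the first difference was -0.213 points, and without replicate 1 it was -2.48 points. The second changed sign without replicate 3 of the libraries with both drugs, which stood at 21.5% beside 11.3% and 12.1% (-0.319 points), or without the single APH library (-0.344 points). The chr12 bait had ART558 libraries at 6.18%, 5.36% and 4.57% below DMSO libraries at 7.27% and 7.91%. The chr6 ART558 libraries spread from 5.92% to 19.5%, on both sides of the DMSO libraries. The chr8 libraries overlapped as well.

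The balance between insertions and direct joins moved towards direct joins under ART558 and under APH, each against DMSO. Insertion junctions were counted as a share of insertion junctions and direct joins together, here called the share without homology. Joins with longer insertions also lack homology and were left out of this share. The share was 26.1% with ART558 and 40.6% with DMSO (difference -14.5 points, adjusted p = 0.0245, exact permutation, 8 against 7 libraries). Under APH it was 32.7%, and 42.9% under DMSO (difference -10.2 points, adjusted p = 0.0233, exact permutation). Adding ART558 to APH gave 27.3% against 31.5% (difference -4.18 points, adjusted p = 0.672, exact permutation). The groups of this last comparison did not overlap for the chr8 and chr12 baits (-9.58 and -3.62 points), while the chr6 difference was 0.678 points, with 1 of the 3 libraries with both drugs at 53.03% and the others at 30.9% and 32.6%. Without that library, replicate 3, the difference was -6.54 points and passed the test (adjusted p = 0.0272, exact permutation), and without the single chr6 APH library it was -6.60 points (adjusted p = 0.08). Libraries of 1 bait and treatment also stood apart: the 7 chr6 DMSO libraries outside the theta collection had 64.6% to 69.3%, against 50.8% ± 0.646 (n = 2) in the chr6 DMSO libraries used here. With these 7 added the difference from DMSO was -18.8 points for ART558 and -13.4 points for APH. For the chr12 bait the share was 27.5% ± 2.97 (n = 2) under DMSO and 14.5% ± 2.44 (n = 3) under ART558. Within sequencing runs the ART558 difference was -15.01 points, with an adjusted p of 0.140 from fewer libraries. When library labels were permuted without bait strata, neither call held: the differences were -15.4 points for ART558 against DMSO (adjusted p = 0.216) and -11.5 points for APH against DMSO (adjusted p = 0.188, permutation).

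**Figure D1:**
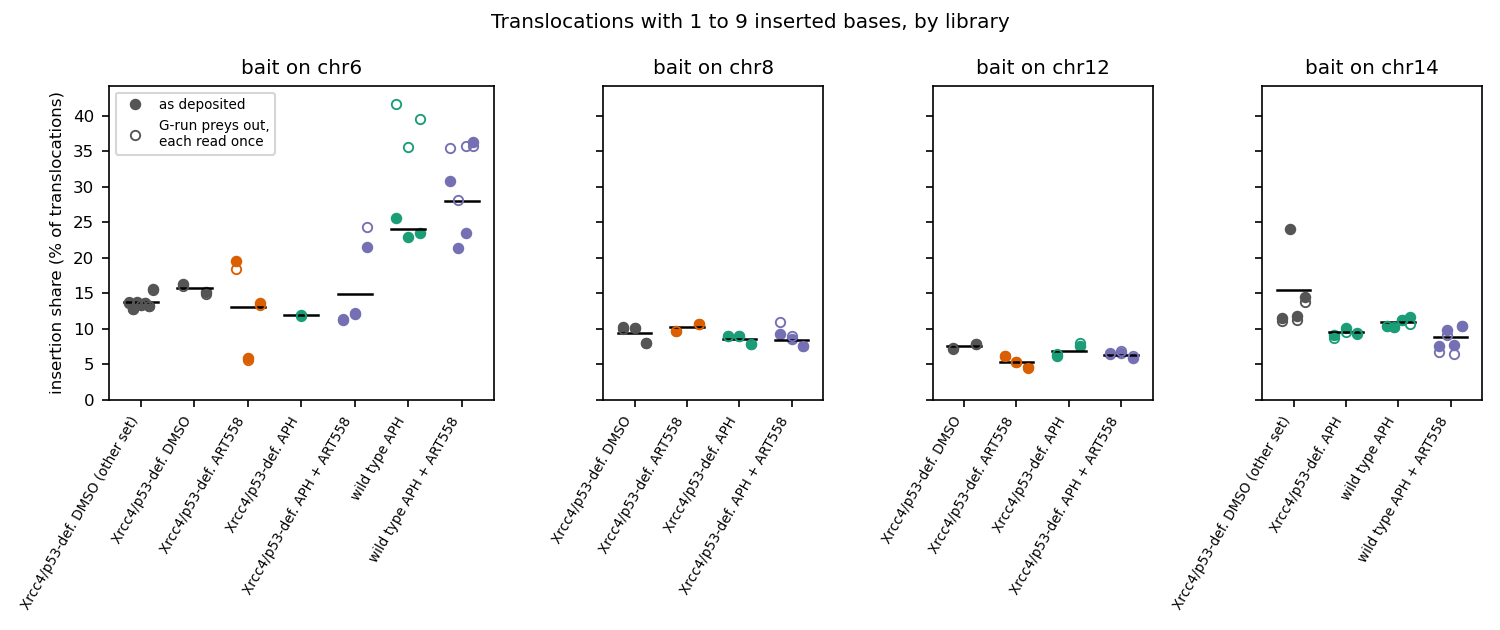
Insertion share, in percent of translocations, by bait, genotype and drug. Each filled point is a library and the line is the group mean; open points give the same library after G-run preys are left out and each read sequence is counted once. The 7 wild-type libraries with the chr6 bait lie between 21.3% and 36.3%, near or above the highest Xrcc4/p53-deficient libraries of that bait.

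The 2 wild-type groups with the chr6 bait had the largest group means of the share. Under APH the wild-type libraries with this bait had 25.6%, 23.0% and 23.5%, against 11.9% in the single Xrcc4/p53-deficient library. With the chr14 bait wild-type libraries had 10.4%, 10.3%, 11.3% and 11.6%, against 9.10%, 10.1% and 9.42%. Over both baits the share was 10.7% in Xrcc4/p53-deficient and 17.5% in wild-type cells (difference -6.73 points, adjusted p = 0.0875, exact permutation, 4 against 7 libraries), where 0.0143 was the smallest p the design allows before adjustment. After G-run preys were left out and each read sequence was counted once, the difference was -14.4 points (adjusted p = 0.0636, exact permutation), and over the alternatives other than single omissions it ran from -14.4 to -4.25 points. Leaving out the single chr6 library of the deficient cells leaves the chr14 bait alone, and the difference is then -1.34 points. Under both drugs the chr6 bait gave 14.95% ± 5.71 (n = 3) in Xrcc4/p53-deficient and 28.0% ± 6.85 (n = 4) in wild-type cells (adjusted p = 0.329, exact permutation).

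The sign of the ART558 difference in wild-type cells depended on the reads and lengths counted. As deposited, the share was 18.4% with both drugs and 17.5% with APH (difference 0.937 points, adjusted p = 0.861, exact permutation, 8 against 7 libraries). After G-run preys were left out and each read sequence was counted once, the difference was -3.85 points (adjusted p = 0.0457, exact permutation). The chr6 libraries then lay between 35.7% and 41.7% under APH and between 28.2% and 35.8% under both drugs. The difference between the genotypes' responses to ART558 could be set up for the chr6 bait only, with a single Xrcc4/p53-deficient APH library. It was -0.919 points as deposited and 9.45 points with both read filters, and neither passed the test (adjusted p = 0.913 and 0.233, exact permutation).

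Most insertions were short. A single base was inserted in 5169 junctions, 27.5% of the insertions, and the counts fell with each added base to 946 junctions (5.04%) with 9 bases. Just outside the rule there were 33918 junctions with no inserted base and 807 with 10. Of the runs of 3 to 9 bases, 1115 (10.7%) matched the continued bait or prey reference with at most 1 mismatch. Shorter runs are not in this count. Leaving these runs out changed no sign and no call. The 20 bases next to the junction matched the reference exactly in 77.3% of the preys and 87.0% of the baits. The mean length was between 3.30 and 3.98 bases in every group, and no comparison of mean length passed the test (the ART558 and DMSO means were 3.75 and 3.59 bases, adjusted p = 0.436, exact permutation, 8 against 7 libraries). The rule caps the length at 9 bases and leaves out 11670 joins with longer insertions. A shift to such lengths would therefore not be seen in these means.

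Single bases are given by bait for ART558, as a description. With the chr12 bait single bases made up 19.01% ± 1.96 (n = 3) of the insertions under ART558 and 27.0% ± 2.01 (n = 2) under DMSO. With the chr6 bait the values were 21.0% ± 2.47 (n = 3) and 24.8% ± 1.61 (n = 2), and with the chr8 bait 32.7% ± 0.165 (n = 2) and 32.3% ± 2.93 (n = 3). Under APH the share of single bases was no lower with ART558 than without it for the chr12 bait (28.97% against 27.9%). In wild-type libraries with the chr6 bait and both drugs, 7-base insertions stood out at 14.9% ± 7.12 (n = 4), with the libraries between 4.61% and 21.0%. The 3 largest sets of insertion junctions with 1 read sequence, with 79, 67 and 33 junctions, were 7-base insertions from these libraries.

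**Figure D2:**
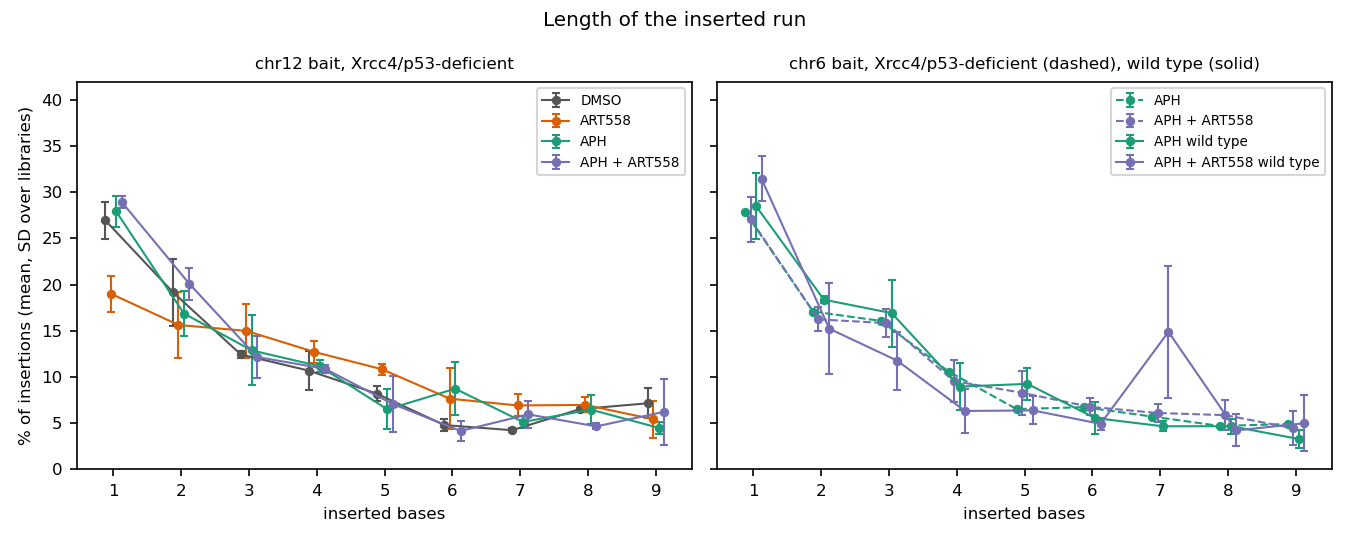
Percent of insertions (mean and SD over libraries) by number of inserted bases, for the chr12 bait in Xrcc4/p53-deficient cells and for the chr6 bait in both genotypes; the single chr6 APH library of Xrcc4/p53-deficient cells has no SD. Single bases are the most frequent class in every group drawn, at 19.01% in the chr12 ART558 libraries, and the 7-base point of wild-type cells with both drugs stands at 14.9%.

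The bait end before an insertion was shorter in ART558 libraries than in DMSO libraries. In all means of the loss, a bait end that ran past the cut counts as a negative loss. In Xrcc4/p53-deficient cells the mean loss, counted in bases from the Cas9 cut back to the last bait base of the read, was 35.5 bases with ART558 and 18.7 with DMSO (difference 16.8 bases, adjusted p = 0.0245, exact permutation, 8 against 7 libraries). For the chr8 bait the ART558 libraries had 41.4 and 34.5 bases and the DMSO libraries 12.4, 18.3 and 18.8. For the chr12 bait they had 48.5, 42.4 and 47.3 against 29.3 and 25.9. For the chr6 bait they had 23.5, 18.4 and 25.4 against 11.2 and 12.8. The groups did not overlap at any of the 3 baits. ART558 and DMSO libraries of the chr8 bait were in different sequencing runs, so drug and run cannot be told apart there. Within sequencing runs, which the chr6 and chr12 baits allow, the difference was 14.4 bases, with an adjusted p of 0.140 from fewer libraries, and with labels permuted without bait strata it was 16.8 bases (adjusted p = 0.188, permutation).

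On top of APH, ART558 went with a similar shortening. The mean loss was 37.7 bases with both drugs and 25.9 with APH (difference 11.9 bases, adjusted p = 0.0245, exact permutation, 9 against 6 libraries). The chr8 libraries had 48.7, 41.9 and 44.3 bases with both drugs and 24.5, 27.6 and 25.5 with APH. The chr12 libraries had 52.2, 47.9 and 43.0 against 34.9 and 37.7, and the chr6 libraries 21.9, 21.2 and 18.4 against 15.4. Without any 1 of the 3 chr6 and chr12 APH libraries the call was lost, over a range of 11.1 to 15.2 bases. At the chr8 and chr12 baits the libraries with both drugs and with APH shared no sequencing run, so drug and run cannot be told apart there. Within a sequencing run only the chr6 bait could be compared, with its single APH library and a difference of 5.14 bases. Without bait strata it was 10.1 bases (adjusted p = 0.410, permutation).

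APH itself gave a loss of 29.7 bases, against 23.9 with DMSO (difference 5.81 bases, adjusted p = 0.0890, exact permutation, 9 against 11 libraries). The groups did not overlap for the chr6, chr8 and chr12 baits. They overlapped for chr14, where the DMSO library with 133 translocations had a loss of 56.7 bases and the other 3 had 31.6 to 34.7. Without that library the difference was 7.25 bases and passed the test (adjusted p = 0.0136, exact permutation). In wild-type cells the loss was 37.2 bases with both drugs and 38.1 with APH (adjusted p = 0.878, 8 against 7 libraries, exact permutation). The wild-type chr14 libraries had 69.4, 63.7, 57.3 and 64.6 bases under APH, above the 38.7, 42.1 and 42.5 bases of Xrcc4/p53-deficient libraries. With the chr6 bait the order was turned, with 12.1, 14.5 and 11.04 bases against 15.4, and the difference over both baits did not pass the test (adjusted p = 0.20, exact permutation, 4 against 7 libraries).

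**Figure D3:**
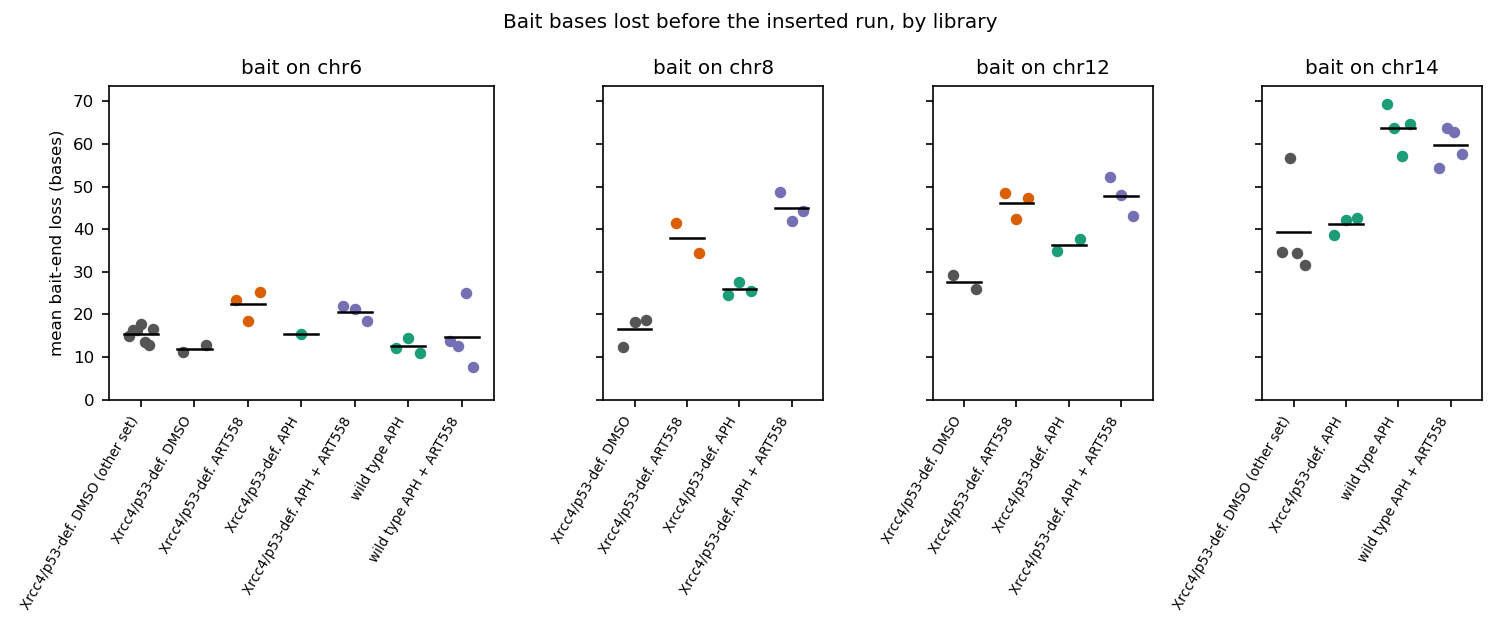
Mean number of bait bases lost before the inserted run, by bait, genotype and drug; each point is a library and the line is the group mean. ART558 libraries lie above DMSO libraries at the chr6, chr8 and chr12 baits. The panels share a common scale, while the longest loss that can be read differs between baits.

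The bait-end loss of insertion junctions is set here beside that of other joins as a description, and the order of the kinds differed between baits and groups. With the chr12 bait in DMSO libraries the mean loss was 27.6 bases before an insertion, 53.1 before a direct join and 41.5 before a join with homology. Under ART558 these were 46.1, 59.0 and 55.7 bases. Insertions followed the larger loss in other groups: under ART558 the mean was 22.4 bases before an insertion and 17.9 before a direct join with the chr6 bait, and 38.0 and 34.4 with chr8. In wild-type APH libraries it was 63.7 and 56.0 bases with the chr14 bait and 12.6 and 8.83 with chr6. Averaged over the chr6, chr8 and chr12 baits, the loss with ART558 minus that with DMSO was 16.8 bases before insertions, 7.05 before direct joins and 14.9 before homology, given here as a description. For the chr8 bait 10.8% of the insertions under DMSO kept a bait end exactly at the cut and 26.7% had lost over 20 bases, against 2.50% and 74.7% under ART558. In wild-type APH libraries 24.2% of the chr6 insertions and 8.60% of the chr14 insertions had the bait end exactly at the cut. The corresponding values in Xrcc4/p53-deficient cells were 4.27% and 2.03%.

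The inserted bases were slightly richer in A and T than in G and C. Over all insertions 56.1% of the bases were A or T, against 55.5% of the first 50 prey bases beside them. The most frequent runs were A (1740 junctions), T (1472), C (1025), G (930) and AT (333). A base inserted at a bait end that lost no base cannot equal the next reference base, since the alignment would then run on; at the chr6 cut, where the next base is G, single bases were A in 120, T in 82 and C in 53 of 255 junctions. With the chr14 bait 36.9% of the bases in runs of 5 to 9 were G, the bait with the largest G-run share.

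No drug or genotype comparison of the A and T content passed the test over all reads and libraries. The content was 59.6% with ART558 and 57.4% with DMSO (difference 2.16 points, adjusted p = 0.128, exact permutation, 8 against 7 libraries). Without G-run preys the difference was 2.27 points (adjusted p = 0.0420, exact permutation), and with both read filters it passed as well (adjusted p = 0.0327, exact permutation). APH against DMSO gave 2.59 points (adjusted p = 0.0674, exact permutation), which passed the test in 3 of 20 single omissions, without chr14 DMSO replicate 3 or 4 or chr14 APH replicate 1, and was 1.503 points without chr14 DMSO replicate 2. Under APH it was 58.0% in Xrcc4/p53-deficient and 49.9% in wild-type cells (adjusted p = 0.127, exact permutation, 4 against 7 libraries). Without G-run preys and with each read counted once, wild-type APH libraries had 56.8% with the chr6 bait and 58.8% with the chr14 bait, and Xrcc4/p53-deficient libraries 60.6% and 61.5%.

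Longer runs were found again near the joined ends more often than in the same search farther away. Runs were searched, in both orientations, within 50 bases on each side of the bait and prey ends, and again around points 1000 bases away. Of 3262 runs of 7 to 9 bases, 530 (16.2%) were found near an end and 70 (2.15%) at the distant points. For runs of 9 bases the shares were 12.8% and 0.529%. At 3 bases both were near saturation, at 98.2% and 96.4%, so short runs carry no information on copying. Without G-run preys and with each read counted once the near share was 16.9% and the distant share 2.58%.

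Copies in the same orientation were more frequent than inverted ones. Of the runs of 7 to 9 bases 11.3% had a copy in the same orientation (1.16% at the distant points) and 5.09% an inverted one (0.981%). The most frequent place was the kept prey in the same orientation, at 5.03%, followed by the lost side of the prey at 2.70% and the lost side of the bait at 2.61%, both in the same orientation. The median distance from the end was 5 bases for 308 runs found at the prey and 11 for 222 found at the bait. The 30 bases just past the Cas9 cut held 71 of the runs (2.18%), 68 of them in the same orientation, against 13 (0.399%) for the same stretches of the other baits. ATAGGCAGC of the chr12 junction shown above is a run of this kind.

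**Figure D4:**
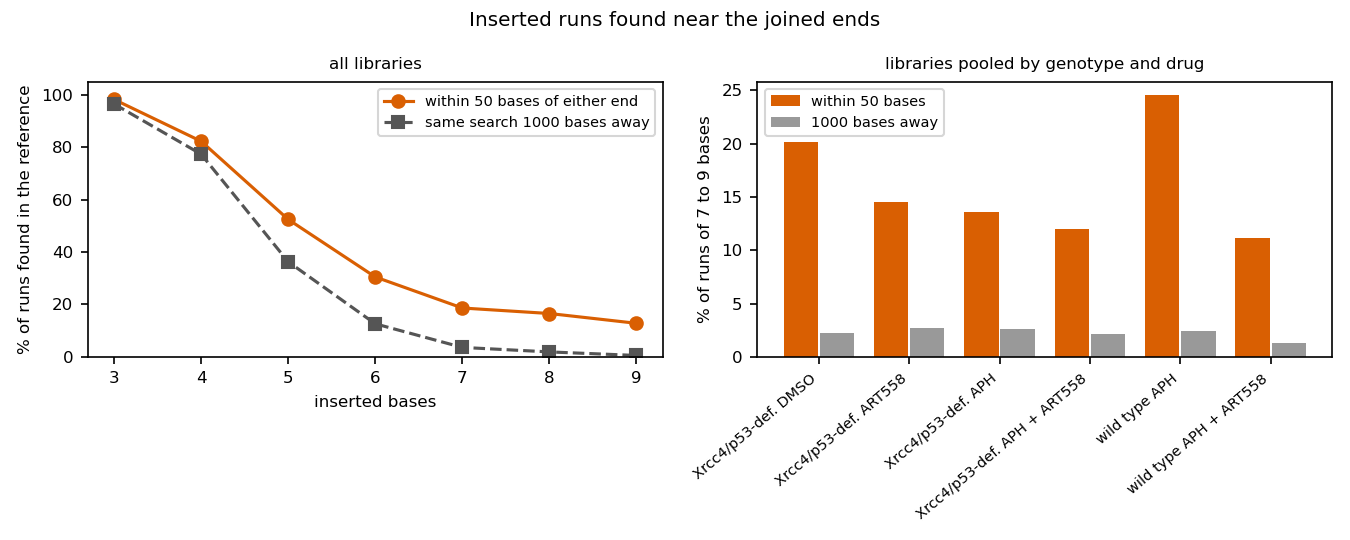
Percent of inserted runs found within 50 bases of either joined end (orange) and in the same search 1000 bases away (grey), by run length over all libraries and, for runs of 7 to 9 bases, pooled by genotype and drug. The curves part with length, to 12.8% against 0.529% at 9 bases, and each orange bar stands above its grey bar; the bars pool libraries and carry no replicate error.

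No drug comparison of the share of copied runs passed the library test over all junctions, and 1 did when crowded 10 kb bins were left out. Pooled over libraries 20.2% of the runs of 7 to 9 bases were found near an end in Xrcc4/p53-deficient cells under DMSO, 14.5% under ART558, 13.5% under APH and 12.04% under both. These pools are unlike, since the DMSO pool holds the 7 chr6 libraries outside the theta collection and 4 chr14 libraries, and ART558 libraries were of the chr6, chr8 and chr12 baits, so they are not compared. By library, for runs of 5 to 9 bases, the share was 26.8% with ART558 and 29.96% with DMSO (difference -3.20 points, adjusted p = 0.654, exact permutation, 8 against 7 libraries). The baits differed in direction, at -7.20 points for chr6, -10.00 for chr8 and 7.61 for chr12, and single omissions gave -6.23 to -0.166 points, both ends from leaving out 1 of the 2 chr8 ART558 libraries. In wild-type cells it was 24.2% with both drugs and 34.4% with APH (difference -10.2 points, adjusted p = 0.127, exact permutation, 8 against 7 libraries). Without crowded bins the wild-type difference was -10.2 points (adjusted p = 0.0400, exact permutation), and over the alternatives other than single omissions the difference ran from -12.7 to -0.909 points. Single omissions gave -12.7 to -7.48 points, and without replicate 3 of the chr6 bait with both drugs the test was passed (adjusted p = 0.0350, exact permutation). In the wild-type APH pool 22.2% of the runs of 7 to 9 bases were found at the prey and 2.38% at the bait, and in this pool the G-run share was high; its part in the copied share was not tested.

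RDC windows were taken as 1 Mb around each of 107 RDCs, a list that the study chose on libraries of these cells. The list covers only part of the RDCs that the study defined, and its other RDCs count here as outside the windows. Of 102 windows on chromosomes 1 to 19, 101 held at least 1 insertion junction in Xrcc4/p53-deficient cells. The same count was not made for windows elsewhere, so it is not a result about RDCs. Of the 5 windows with the most insertions, 4 are named: Auts2 (chr5:131400000-132400000), a neurodevelopmental chromatin regulator, held 31 insertions of 221 translocations; Magi2 (chr5:19500000-20500000), a synaptic scaffold, held 25 of 137. Nrg3 (chr14:38400000-39400000), a neuregulin ligand, held 23 of 141. Csmd1 (chr8:16300000-17300000), a transmembrane protein with complement-control domains, held 18 of 94. The libraries differ in depth and bait, so these counts are not compared between drugs.

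Inside RDC windows the insertion share was above that outside in most APH libraries, without passing the test. In Xrcc4/p53-deficient APH libraries it was 10.5% inside and 8.74% outside, and higher inside in 8 of 9 libraries (difference 1.72 points, adjusted p = 0.0820, exact sign-flip permutation). It ranged from -0.294 points in a chr8 library to 4.17 points in a chr14 library. With both drugs it was 14.4% inside and 9.63% outside, again higher in 8 of 9 libraries (difference 4.78 points, adjusted p = 0.127, exact sign-flip permutation). The APH difference passed the test when junctions with no read-length entry were left out (2.13 points, adjusted p = 0.0280, exact permutation), when crowded bins were left out (2.19 points, adjusted p = 0.0273) and when chromosomes X and Y were added (2.03 points, adjusted p = 0.0319). With insertions of 2 to 9 bases alone the APH difference was 0.455 points (6.89% inside, 6.44% outside, adjusted p = 0.654, exact permutation).

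Under DMSO and under ART558 alone the differences were -0.922 points (11.4% inside, 12.3% outside, adjusted p = 0.654, sign-flip permutation, 17 libraries) and -1.42 points (8.08% inside, 9.50% outside, adjusted p = 0.459, 8 libraries, exact sign-flip permutation). Single libraries moved both: the DMSO difference was -0.327 points without chr8 replicate 2, -0.428 without chr14 replicate 3 and -1.46 without replicate 7 of the chr6 libraries outside the theta collection, and the ART558 difference was -0.834 points without chr8 replicate 2. Wild-type APH libraries gave 5.32 points, which came from 1 library: chr6 replicate 1 had 31 insertions among 53 translocations in RDC windows, and without it the difference was -0.521 points. Seen the other way, and pooled over libraries of different baits and depths as a description, 10.7% of all insertions of the Xrcc4/p53-deficient APH pool fell in RDC windows, against 6.23% of its direct joins and 9.53% of its joins with homology. Under DMSO these were 4.02%, 3.81% and 4.36%. With both drugs they were 7.61%, 4.47% and 5.18%. Under ART558 alone the order turned, with 3.67% of insertions against 4.81% of direct joins and 4.45% of joins with homology. Wild-type pools gave 4.62%, 3.79% and 4.11% under APH, but 3.44%, 4.12% and 4.15% without chr6 replicate 1, so the order rested on that library. With both drugs the wild-type pool had 5.52% of insertions, 5.999% of direct joins and 5.42% of joins with homology in the windows.

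**Figure D5:**
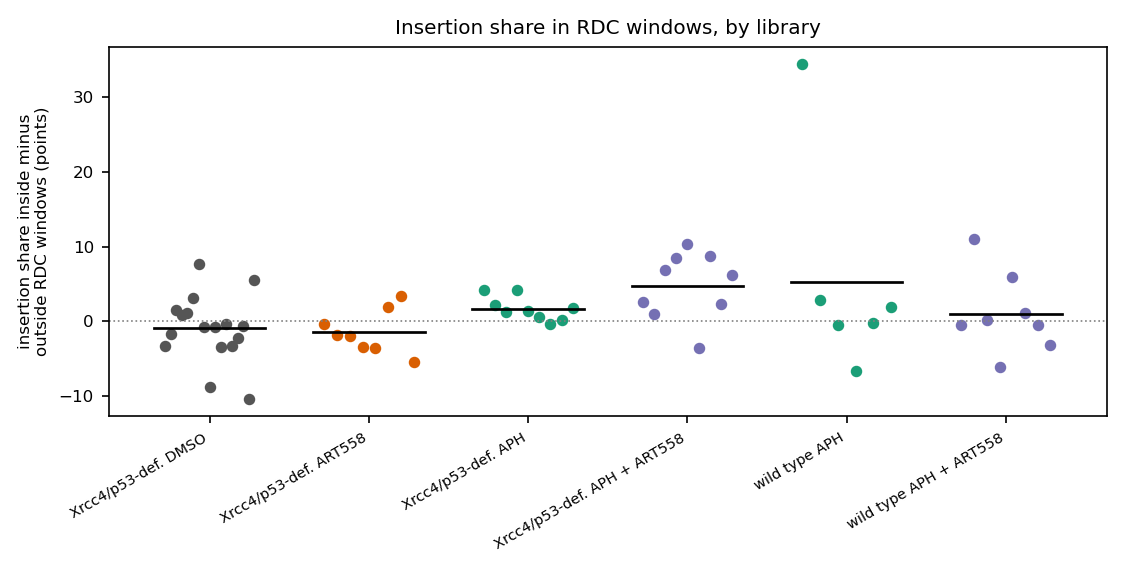
Insertion share inside minus outside RDC windows, in percentage points, for each library with at least 20 translocations in the windows; lines are means. In Xrcc4/p53-deficient cells 8 of 9 APH libraries and 8 of 9 libraries with both drugs lie above 0, and the wild-type APH mean is raised by 1 library at 34.5 points.

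Most insertion junctions stood alone on the chromosomes. In bins of 10 kb, 12782 of 14391 occupied bins held a single insertion, and 68.05% of all insertion junctions were alone in their bin. The fullest bin, chr14:19410001-19420000, held 558 insertions among 2190 translocations (25.5%), and chr2:98660001-98670000 held 535 among 2814 (19.01%); neither overlaps a protein-coding gene. The bin chr16:75710001-75720000 held 87 insertions among 148 translocations in 15 libraries, all with the chr14 bait. The bin chr14:22760001-22770000, in an intron of Lrmda, held 74 among 515, all with the chr8 bait. Insertion preys lay in bodies of protein-coding genes in 49.2% ± 6.34 of cases (SD, n = 59 libraries), direct joins in 45.9% ± 4.40 and joins with homology in 47.6% ± 3.44.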

How the data were processed

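LAM-HTGTS junctions of 60 libraries were analysed; 12 replication-timing samples were not analysed here. Per the labels and the methods, the authors trimmed and demultiplexed reads, aligned them to mm10 with Bowtie2 and filtered junctions with the HTGTS pipeline; versions are not given in the sources used here. The deposited tables hold 1 line per junction, with coordinates and read positions and with no counts or normalization; 1 incomplete last line was dropped. The insertion length was the prey start minus the bait end minus 1, in read positions. Sequences were read from GRCm38.p6 and gene bodies from GENCODE; Python 3.11.15, pandas 2.3.3 and scipy 1.17.1 were used.

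Groups came from the labels. A library entered a test with at least 100 translocations, which left out 1 ART558 library of the chr8 bait with 28; the other 59 held 133 to 8194. Drug and genotype comparisons used the mean over baits of the difference between group means, and every reassignment of the libraries to the groups inside each bait was enumerated for an exact permutation p (two-sided). RDC windows were tested by flipping signs over libraries (exact up to 10 libraries, otherwise 100000 random flips). Benjamini-Hochberg adjustment covered 49 tests, and 0.05 was the threshold. The script was checked on simulated data. The comparisons of ART558 and of APH share control libraries.

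The members, lists and tests were chosen with earlier results of these data known. The named windows were the 5 with the most insertions in Xrcc4/p53-deficient cells, of which 1 is not reported here; the named runs were the 5 most frequent runs of 1 to 3 bases; shown junctions were the longest runs, ties going to the lowest chromosome and position. Alternatives are given in the closing section.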

Additional observations from a re-analysis of the deposited data

Results flagged for a closer look

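The smallest Xrcc4/p53-deficient DMSO library with the chr14 bait, replicate 2 of its 4, stood apart from the other 3 in several measures, each over 32 insertion junctions. Its bait-end loss was 56.7 bases, against 31.6 to 34.7 in the others. Its inserted bases were 40.5% A or T, against 55.9% to 59.1%. Its share of runs of 5 to 9 bases found near an end was 16.7%, 3 of 18 runs, against 38.2% to 40.6%. Among the 7 chr6 DMSO libraries outside the theta collection, replicate 7 had an insertion share of 15.6%, against 12.8% to 13.7% in the others. Of 30 checks of a lowest or highest library, 4 were past the critical value, where chance passes about 1 in 20.

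Insertions of 1 to 9 bases were also frequent in junctions outside the rule. They made up 12.4% of the junctions on chromosomes X and Y (937 of 7554) and 20.9% of those within the bait chromosome (86759 of 414714), a class that includes joins between the ends of the same cut.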

How the results depend on the processing

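The shares rest on 133 to 8194 translocations per library, and copied runs on few runs in most, so single libraries can move a value. Bait-end loss in ART558 against DMSO kept its direction in all 17 alternatives (14.4 to 22.5 bases), and the share without homology in all 16 (-18.8 to -12.1 points). The cause of each change below was not tested unless it is named.

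The replicate number of the labels as a block (replicate block) left few pairs: same-numbered libraries deviated in the same direction in the insertion share in 27 of 40 pairs, and in 8 of 8 for APH against DMSO. The labels do not say what the numbers share, and they were not taken to pair libraries. The pairs limit the p that can be reached, and no result passed the test. Bait-end loss was then 16.5 bases for ART558 against DMSO and 15.2 for APH plus ART558 against APH; the insertion share of APH against DMSO was -3.03 points. Signs turned for the share in APH plus ART558 against APH (-0.300), in wild-type cells for the share (-0.678), the share without homology (-2.61) and the A and T content (1.18), and between genotypes under both drugs for length (0.0426) and copied share (-2.85).

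The APH effect on the insertion share lost its call with lengths 2 to 9 (-2.33), without bait strata (-3.55), with both read filters (-1.91) and within sequencing runs (-2.82). The setting with both read filters also dropped chr14 DMSO replicate 2. Without bait strata, bait-end loss was 16.8 bases for ART558 against DMSO and 10.1 for APH plus ART558 against APH, neither called, and the share without homology also lost its call for ART558 against DMSO (-15.4) and APH against DMSO (-11.5), so none of the 5 calls held; within runs bait-end loss was 14.4 and 5.14. Within runs the copied share of ART558 against DMSO (0.205) and the share without homology of APH plus ART558 against APH (0.678) changed sign. The APH effect on bait-end loss passed the test with at least 500 translocations (7.25), without crowded bins (6.78), without junctions lacking a read length (7.54), without G-run preys (7.63) and with both read filters (7.504). Each of these settings also dropped chr14 DMSO replicate 2, and leaving out that library alone gave 7.25 bases, which passed as well. The RDC difference under APH passed with chromosomes X and Y (2.03), without crowded bins (2.19), without junctions lacking a read length (2.13) and with both read filters (2.13), and was 0.455 with lengths 2 to 9 (not called).

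In wild-type cells ART558 against none changed sign for the share with lengths 1 to 5 (-0.926), without junctions lacking a read length (-2.70), without G-run preys (-0.419), with each read once (-3.62) and with both filters (-3.85, now called). The copied share passed the test without crowded bins (-10.2, exact permutation, adjusted p = 0.0400). The share without homology changed sign with each junction once (-1.44) and in the same 5 settings (-1.20, -2.93, -0.396, -6.83 and -6.22). Length did so with lengths 1 to 5 (-0.115) and without junctions lacking a read length (-0.0534). Bait-end loss did so with lengths 1 to 5 (0.418), without crowded bins (0.325), without G-run preys (0.998) and with both filters (0.222). A and T content did so with each read once (1.10) and with both filters (0.188). RDC differences did so with 2 Mb windows under APH (-0.588) and under both drugs (-1.70), and without crowded bins under both drugs (-0.455).

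Between genotypes under both drugs, length changed sign with lengths 1 to 5 (0.264), without junctions lacking a read length (0.949), without G-run preys (0.431), with each read once (0.258) and with both filters (0.559). The copied share did so in these settings (-15.5, -4.51, -8.23, -7.28 and -15.3), without crowded bins (-1.84) and with 25 or 100 bases searched (-5.44 and -6.02). Under APH the copied share did so without bait strata (0.0452) and without junctions lacking a read length (3.17), and length without crowded bins (-0.0738). The genotype by ART558 term did so with lengths 2 to 9 (0.201), lengths 1 to 5 (2.60), without junctions lacking a read length (7.69), without G-run preys (2.48), with each read once (8.07) and with both filters (9.45). With lengths 1 to 5, ART558 against DMSO changed sign for A and T content (-0.0747) and copied share (6.32). The A and T content of ART558 against DMSO passed the test without G-run preys and with both read filters. With no minimum of translocations, APH plus ART558 against ART558 changed sign for the share (-0.0792).

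Leaving out 1 library at a time gave -2.48 to -0.213 for the share of ART558 against DMSO, and -3.16 to -2.12 for the share and 5.16 to 7.25 for bait-end loss of APH against DMSO. For APH plus ART558 against APH it gave -0.344 to 1.39 for the share, 11.1 to 15.2 for bait-end loss, -6.60 to -2.84 for the share without homology and -3.27 to 0.299 for copied share. For APH plus ART558 against ART558 it gave -0.809 to 1.45 for the share, -1.90 to 3.95 for the share without homology and -5.70 to 0.356 for copied share. In wild-type cells it gave -0.446 to 2.05 for the share, -2.67 to 0.210 for bait-end loss, -1.91 to 2.18 for the share without homology and -3.84 to 0.766 for A and T content, with RDC differences of -0.521 to 7.70 under APH and -0.427 to 2.02 under both drugs. Between genotypes it gave -8.26 to 0.979 for the share without homology and -5.32 to 2.38 for copied share under APH, and -0.304 to 0.0426 for length and -2.86 to 4.66 for copied share under both drugs. The genotype by ART558 term ran from -4.21 to 1.85.

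The filters on G-run preys, repeated read sequences and missing read lengths, and the sequencing run as a stratum, were chosen after seeing the data.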
